A study of Mus musculus with 8 samples.

Results

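The 10 genes described here carry the growth hormone and IGF1 axis in the liver: the growth hormone receptor Ghr, its transcription factor Stat5b and feedback inhibitor Socs2, the hormone Igf1, the complex subunit Igfals, the receptor Igf1r, and the IGF-binding proteins Igfbp1, Igfbp2, Igfbp3 and Igfbp4. They were chosen by name and make up 10 of 19560 genes measured. A gene's value is the median over the probe sets annotated with its symbol alone, which gave 92 probe sets for the 10 genes, from 3 for Igfals to 23 for Igf1r. Liver RNA of 8 male mice aged 6 weeks was hybridised to Affymetrix mouse arrays, 1 array per mouse. All 8 mice lacked TAK1, a kinase of inflammatory and survival signalling, in liver parenchymal cells (LPC). The comparison was meant to tell genes under apoptotic control from those under necrotic control. Mice labelled as Tak1/Caspase8 LPC double knockout, called Tak1/Casp8 here, lacked the apoptotic protease caspase 8 in the same cells. Mice labelled Tak1 LPC-KO/Rip3-/-, called Tak1/Rip3, carried the Rip3 knockout, which removes the necroptosis kinase RIP3. The label does not limit this knockout to LPC, unlike the deletions of TAK1 and caspase 8, so the groups also differ in other liver cells. There were 4 mice in each group. The sources used here do not name the driver of the LPC deletion, other liver cells keep Map3k7 and Casp8, and mice with intact TAK1 were not analysed here. Each difference below is Tak1/Casp8 minus Tak1/Rip3 on the log2 scale, so it does not say which group departed from a healthy liver.

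In textbook physiology, pituitary growth hormone binds GHR on hepatocytes and activates the kinase JAK2, which phosphorylates STAT5B. STAT5B then switches on Igf1, Igfals and Socs2 in the nucleus. The liver secretes IGF1 into the blood, where most of it travels in a complex with IGFBP3 and the acid-labile subunit encoded by Igfals. The other binding proteins hold IGF in smaller complexes: IGFBP1 is known to be induced in fasting and repressed by insulin, and IGFBP2 is abundant in fetal liver. IGF1R, the receptor through which IGF1 acts, is known to be scarce on adult hepatocytes and present on other liver cells.

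Array medians of the gene values were 7.69 to 7.73 in the Tak1/Casp8 and 7.77 to 7.83 in the Tak1/Rip3 livers, without overlap. The median difference over all genes was 0.01, and results with the arrays shifted to 1 median are given below. The correlation between any 2 arrays across genes lay between 0.975 and 0.993. Casp8 was lower in the Tak1/Casp8 livers (9.97 against 11.27) and Ripk3 lower in the Tak1/Rip3 livers (6.92 against 7.90, although not with its brightest probe set, where the difference was -0.04). Both differed in the direction of the labels, while Map3k7, targeted in all mice, was at 9.85 and 9.93. All 10 hepatocyte markers were above the lower quartile of gene values. Their mean level was 12.97 to 13.02 in the Tak1/Casp8 and 12.83 to 12.92 in the Tak1/Rip3 livers. These levels differed by 0.14 and did not overlap. The markers did not differ alike: 5 differences were positive and 5 negative, with a median of -0.01. The largest, 0.96, was that of Serpina1a, which has 1 probe set. The number of arrays limits the precision of each value.

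In the Tak1/Casp8 livers the binding protein Igfbp2 was lower by 2.17-fold, and it alone of the 10 genes passed the test (limma, Benjamini-Hochberg adjusted p under 0.05). Among all 19560 genes, 6.69% passed, 2.64% as higher and 4.05% as lower, so a count of 1 in 10 is near the background. The differences of Igf1 itself and Igfbp4 were -0.19 and 0.02, and neither passed. In 4 of the 10 genes the groups did not overlap, against 14.6% of all genes. Ghr and Stat5b lay above their Tak1/Rip3 values in all 4 Tak1/Casp8 livers (6.33% of all genes did), and Igf1r and Igfbp2 below them (8.3%). The median difference of the 10 genes was -0.12, with 0.01 over all genes. The 95% intervals of 6 of the 10 genes excluded 0, before any adjustment for the number of genes tested. The share of all genes with such intervals is not given here, so this count has no background beside it. Fewer cells of a type and less RNA per cell cannot be told apart in whole liver.

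**Figure D1:**
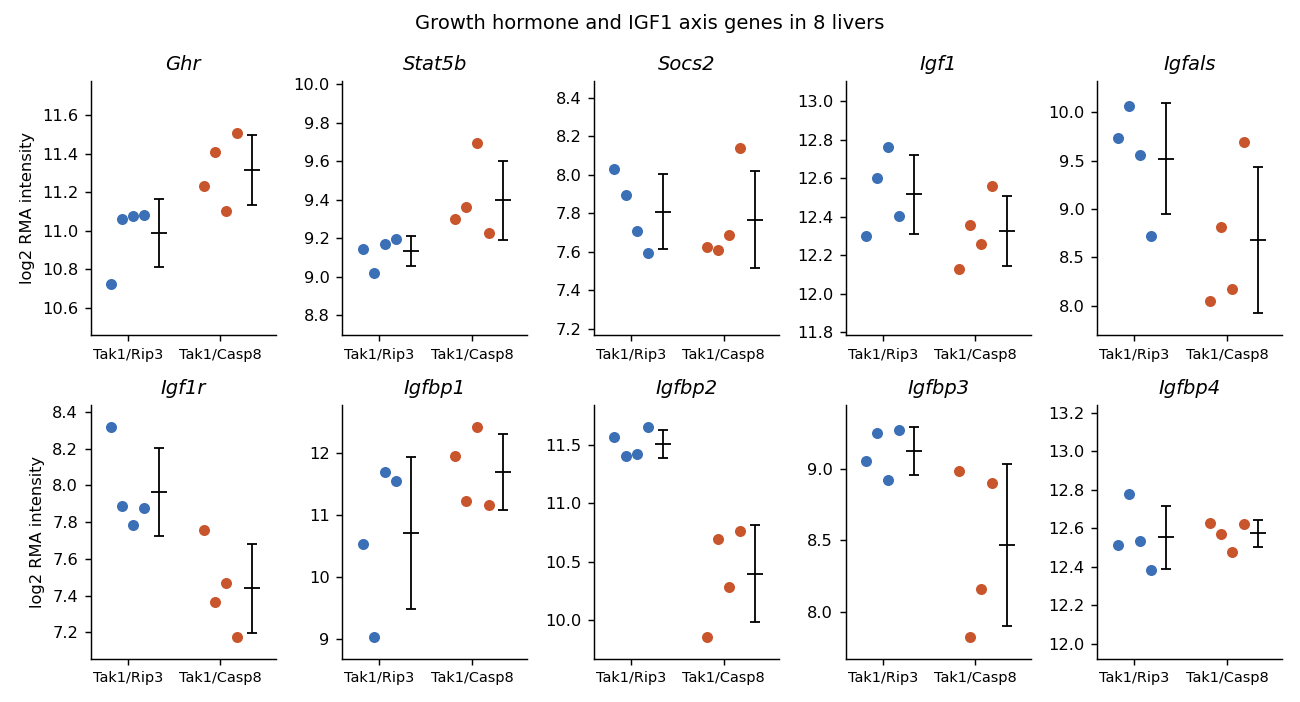
Log2 RMA intensity (vertical axes, a separate scale for each gene) of the 10 genes in the 4 Tak1/Rip3 livers (blue, replicates 1 to 4 from left to right) and the 4 Tak1/Casp8 livers (orange); bars give the mean and SD. The Igfbp2 values of the groups are apart, at 11.41 to 11.66 and 9.86 to 10.76, whereas those of Igfbp1 and Igf1 overlap.

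The growth hormone receptor Ghr was measured at 10.73, 11.06, 11.08 and 11.08 in the Tak1/Rip3 livers. In the Tak1/Casp8 livers it was at 11.23, 11.41, 11.10 and 11.51. All 4 Tak1/Casp8 values were above the highest Tak1/Rip3 value, the nearest by a small margin. The difference of 0.33 (95% interval 0.05 to 0.60, n = 4 per group) did not pass the test (limma adjusted p = 0.160). It was 0.24 without Tak1/Rip3 replicate 1, the lowest liver, and 0.05 with the brightest of the 15 Ghr probe sets in place of their median. Among these probe sets 14 were positive. The 7 with a mean level above 12 differed by 0.03 to 0.23, and the 8 dimmer ones by -0.02 to 0.41. The probe set at -0.02 lay under the lower quartile of probe sets, at 2.47 in the Tak1/Casp8 and 2.49 in the Tak1/Rip3 livers.

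Stat5b, the factor that carries the growth hormone signal to the genome, was at 9.14, 9.02, 9.17 and 9.20 in the Tak1/Rip3 livers. It was at 9.30, 9.36, 9.69 and 9.23 in the Tak1/Casp8 livers. The groups did not overlap, but the gap between Tak1/Casp8 replicate 4 and Tak1/Rip3 replicate 4 was narrow, and replicate 3 of Tak1/Casp8 stood above its group. The difference of 0.26 (95% interval 0.01 to 0.52) did not pass (limma adjusted p = 0.219), and 12 of 14 probe sets were positive.

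Socs2 encodes the inhibitor through which growth hormone signalling limits itself. Its values were 8.03, 7.89, 7.71 and 7.59 in the Tak1/Rip3 livers. They were 7.63, 7.61, 7.69 and 8.14 in the Tak1/Casp8 livers, so each group spanned most of the range of the other. The difference was -0.04 (95% interval -0.36 to 0.28, limma adjusted p = 0.909), and its sign turned without Tak1/Casp8 replicate 1, without its replicate 2, without Tak1/Rip3 replicate 1, and with the brighter probe sets. Without Tak1/Casp8 replicate 4, the highest liver, it was -0.17. The 8 probe sets of Socs2 lay at mean levels from 6.22 to 11.1, with 2 under the lower quartile of probe sets in both groups, and they differed by -0.39 to 0.26.

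Igf1, the growth factor that the liver releases in response to growth hormone, was at 12.30, 12.60, 12.76 and 12.41 in the Tak1/Rip3 livers. In the Tak1/Casp8 livers it was at 12.13, 12.36, 12.26 and 12.56. The groups overlapped, and the difference of -0.19 had a 95% interval of -0.48 to 0.10 (limma adjusted p = 0.452). The 12 Igf1 probe sets did not all differ alike. In 11 of them the difference was negative, in 8 of them between -0.27 and -0.04, but 3 had larger differences of -0.57, -0.61 and -1.001. In 4 of the 12 the groups did not overlap, each lower in Tak1/Casp8. The share of all probe sets without overlap is not given here. The probe set at -1.001 was also the dimmest of the gene, at 9.60 in the Tak1/Casp8 and 10.60 in the Tak1/Rip3 livers. It did not pass singly (limma adjusted p = 0.243 over all probe sets), and its place in the gene is not given in the sources used. With the mean over probe sets in place of the median, Igf1 differed by -0.30 (limma adjusted p = 0.0732).

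Igfals encodes the acid-labile subunit, which extends the life of IGF1 in blood. It was at 9.73, 10.07, 9.56 and 8.72 in the Tak1/Rip3 livers. It was at 8.04, 8.81, 8.17 and 9.70 in the Tak1/Casp8 livers. The groups overlapped: Tak1/Casp8 replicates 2 and 4 lay within the Tak1/Rip3 range, and Tak1/Rip3 replicates 3 and 4 within the Tak1/Casp8 range. The difference of -0.84 (95% interval -1.66 to -0.02), or 1.79-fold, did not pass (limma adjusted p = 0.225). Without Tak1/Casp8 replicate 4 it was -1.18 and passed (limma adjusted p = 0.0478). The SD of Igfals within a group, 0.76 in Tak1/Casp8 and 0.58 in Tak1/Rip3, was larger than that of 99.1% or more of all genes. All 3 probe sets were negative, from -1.09 to -0.73.

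Promoter sequence was looked up for the 10 genes in a RefSeq table of build GRCm38.p6, which held 14 start sites for 9 of them and no entry for Socs2. The 250 bases before each start were searched on both strands for 4 motifs. These were TTCNNNGAA, the palindrome bound by STAT5 and other STATs, CAAAACA, a part of the insulin response element of Igfbp1, the GC box GGGCGG, and TATAAA. Of all 32851 windows of that length in the table, 7.02% held TTCNNNGAA, 5.56% CAAAACA, 32.7% GGGCGG and 12.4% TATAAA. Among the 9 genes only Igfals held TTCNNNGAA, once before each of 2 of its 3 starts. Only Igfbp1 held CAAAACA, 5 genes held GGGCGG and 2 held TATAAA. These counts are of genes, some with several starts, whereas the shares above are of single windows. The 2 are unlike units, so no excess of a motif can be read from them. The 120 bases before the start are shown for Igfals, as the gene of the axis with the STAT palindrome, and for 3 binding proteins whose values contrast: Igfbp1, the most variable, Igfbp2, the one that passed the test, and Igfbp4, the steadiest in the Tak1/Casp8 livers. The capitals mark the palindrome in Igfals, CAAAACA in Igfbp1, the GC boxes in Igfbp2 and TATAAA in Igfbp4. The windows are chr17:24878111-24878230, chr11:7197667-7197786, chr1:72824360-72824479 and chr11:99041124-99041243, all on the + strand and written 5′ to 3′.
Igfals: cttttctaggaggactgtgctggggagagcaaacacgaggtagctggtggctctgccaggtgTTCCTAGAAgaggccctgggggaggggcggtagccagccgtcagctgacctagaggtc
Igfbp1: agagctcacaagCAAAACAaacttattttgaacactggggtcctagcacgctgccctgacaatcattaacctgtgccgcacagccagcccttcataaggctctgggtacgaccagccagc
Igfbp2: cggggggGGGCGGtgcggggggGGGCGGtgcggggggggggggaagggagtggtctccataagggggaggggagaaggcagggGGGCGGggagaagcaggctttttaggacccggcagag
Igfbp4: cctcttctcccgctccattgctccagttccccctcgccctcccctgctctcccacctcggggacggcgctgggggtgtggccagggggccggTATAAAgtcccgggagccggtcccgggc
The palindrome of Igfals begins 58 bases before the start, CAAAACA of Igfbp1 108 bases, TATAAA of Igfbp4 28 bases, and the GC boxes of Igfbp2 113, 98 and 37 bases before it. A match describes the letters only, and no binding was measured here.

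Igfbp2, a carrier of IGF1 and IGF2 that is prominent in fetal liver, was at 11.57, 11.41, 11.42 and 11.66 in the Tak1/Rip3 livers. It was at 9.86, 10.69, 10.28 and 10.76 in the Tak1/Casp8 livers. Every Tak1/Casp8 value lay well below every Tak1/Rip3 value, and the Tak1/Casp8 livers were also the more spread (SD 0.42 against 0.12). The difference was -1.11 ± 0.18 (SE, 95% interval -1.52 to -0.71, n = 4 per group, limma adjusted p = 0.00668). Only 1.28% of all genes had a larger difference in either direction. The call was kept in each of the 8 fits that left out an array (adjusted p from 0.00409 to 0.0265) and was lost when each group kept its own unmoderated variance (adjusted p = 0.143). Its 4 probe sets differed by nearly the same amount, from -1.19 to -1.09, and each passed among all probe sets.

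Igfbp1, the binding protein under acute control by insulin and fasting, was at 10.54, 9.04, 11.70 and 11.56 in the Tak1/Rip3 livers. It was at 11.96, 11.23, 12.43 and 11.17 in the Tak1/Casp8 livers. The Tak1/Rip3 livers spanned 2.66 log2 units, with replicate 2 far below the others, and the upper pair lay within the Tak1/Casp8 range. The SD of 1.23 in Tak1/Rip3 was larger than that of 99.97% of all genes. The difference of 0.99 had a 95% interval of -0.18 to 2.16 and did not pass (limma adjusted p = 0.325), and it was 0.43 without Tak1/Rip3 replicate 2. All 4 probe sets were positive, from 0.78 to 0.99.

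Igfbp3, the main carrier of IGF1 in blood, was at 9.06, 9.25, 8.92 and 9.27 in the Tak1/Rip3 livers. It was at 8.98, 7.82, 8.16 and 8.90 in the Tak1/Casp8 livers. Tak1/Casp8 replicates 2 and 3 lay below every Tak1/Rip3 liver, replicate 4 lay just under their lowest value and replicate 1 among them. The difference of -0.66 (95% interval -1.19 to -0.13) did not pass (limma adjusted p = 0.139), although all 5 probe sets were negative, from -0.70 to -0.50. Igfbp3 is made mainly by cells other than hepatocytes in liver. Of 9 endothelial markers and 10 of Kupffer cells and macrophages the median differences were 0.11 and 0.03, and the mean levels of both lists overlapped between the groups. The 10 markers of stellate cells and fibroblasts all had negative differences, with a median of -0.39, and their mean levels did not overlap.

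Igfbp4, a binding protein that restrains IGF1, was at 12.52, 12.78, 12.53 and 12.38 in the Tak1/Rip3 livers. It was at 12.63, 12.57, 12.48 and 12.62 in the Tak1/Casp8 livers, all within the Tak1/Rip3 range. The difference was 0.02 (95% interval -0.21 to 0.25, limma adjusted p = 0.941), and its sign turned without Tak1/Rip3 replicate 4. In these array values a change beyond 0.25 in either direction is excluded at that level of confidence. The level of Igfbp4 was at percentile 99.0 of all genes, and whether such bright probe sets register changes in full was not tested. All 4 probe sets lay between 0.02 and 0.10.

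**Figure D2:**
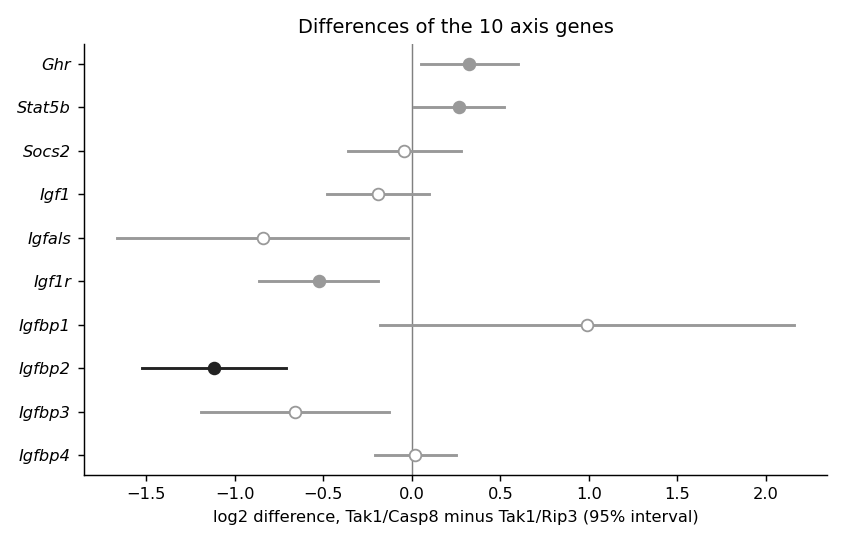
Log2 difference, Tak1/Casp8 minus Tak1/Rip3, of the 10 genes (points) with 95% intervals from the limma fit (lines), n = 4 per group. Black marks an adjusted p under 0.05, which Igfbp2 alone reached (-1.11), and a filled point marks groups that do not overlap, as for Ghr, Stat5b, Igf1r and Igfbp2.

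Igf1r, the tyrosine kinase receptor for IGF1 and IGF2, was at 8.32, 7.89, 7.78 and 7.87 in the Tak1/Rip3 livers. It was at 7.75, 7.36, 7.47 and 7.18 in the Tak1/Casp8 livers. The groups did not overlap, but Tak1/Casp8 replicate 1 came within a few hundredths of Tak1/Rip3 replicate 3. The difference of -0.52 (95% interval -0.86 to -0.19), or 1.44-fold, narrowly missed the threshold (limma adjusted p = 0.0689). It passed without Tak1/Casp8 replicate 1 (-0.63, limma adjusted p = 0.0422), with the mean over probe sets (0.0321) and with genes under the 30th percentile of level left out (0.0465). It did not pass with the brighter probe sets (adjusted p = 0.170), the brightest one (0.251) or a separate unmoderated variance for each group (0.193), and without Tak1/Rip3 replicate 1 it was -0.41 (limma adjusted p = 0.164). All 23 probe sets were negative, from -1.18 to -0.01, the smallest being a probe set under the lower quartile. The stellate cell and fibroblast markers given above belong to cells known to carry IGF1R. Of these markers 2 of the 10 passed as lower, against 4.05% of all genes. Their mean level was 9.82 to 10.33 against 10.34 to 10.64, and none was under the lower quartile. The 7 measured markers of dividing cells all passed as lower, with a median of -1.42 and levels of 7.30 to 8.38 against 8.71 to 9.56. The part of these cells in the Igf1r, Igfbp2 and Igfbp3 values was not tested.

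Among the single probe sets of the 10 genes, the 4 of Igfbp2 passed and the other 88 did not (limma, adjusted over 223771 probe sets, of which 1.63% passed, 0.542% as higher and 1.09% as lower). At an unadjusted p under 0.05 there were 25, of which 4 were those of Igfbp2. The share of all probe sets at that unadjusted cutoff is not given here, so the 25 cannot be set beside the shares above. The probe sets of Igfbp2, Igfbp3 and Igfbp1 had similar differences within each gene, whereas those of Igf1 and Igf1r spanned more than 1 log2 unit. The count of 4 was 2 without Tak1/Casp8 replicate 1 or Tak1/Rip3 replicate 2, 1 without Tak1/Casp8 replicate 2, and 0 when replicate 3 of Tak1/Casp8 or replicate 1, 3 or 4 of Tak1/Rip3 was omitted. In those last 4 fits, 16 to 22 of the 92 had an unadjusted p under 0.05, again without the share of all probe sets at that cutoff.

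**Figure D3:**
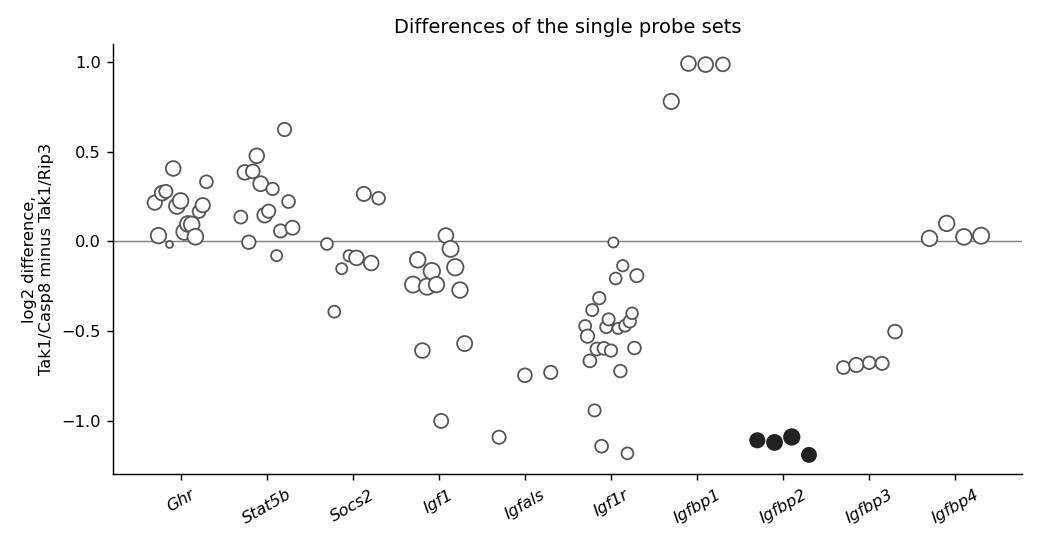
Log2 difference, Tak1/Casp8 minus Tak1/Rip3, of each of the 92 probe sets of the 10 genes, in order of probe set ID from left to right within a gene. Larger circles are brighter probe sets and filled circles passed the test over all probe sets. The 4 filled circles, of Igfbp2, lie between -1.19 and -1.09.

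Around the 10 genes, 15 of 18 listed genes of growth hormone receptor signalling were measured, and 1 passed. Of all genes 6.69% passed in either direction, so this count is near the background. Socs3, an inhibitor of cytokine receptors that interleukin 6 also induces, had a level 1.54-fold higher in Tak1/Casp8 (0.62 ± 0.13 SE, limma adjusted p = 0.0167, n = 4 per group). It no longer passed without Tak1/Rip3 replicate 4, with the brightest probe set (0.15) and without the 2 least correlated arrays. The kinase Jak2 differed by 0.27 (adjusted p = 0.351), Stat5a, the close relative of Stat5b, by 0.02, and Cish, another STAT5 target and inhibitor, by -0.06. None of these 3 passed, and the signs for Stat5a and Cish turned under other settings. The median of the list was 0.03.

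Of 13 other genes of the IGF system 1 passed as higher and 4 as lower, against 2.64% and 4.05% of all genes. The growth factor Igf2 was at 7.26 in the Tak1/Casp8 and 11.26 in the Tak1/Rip3 livers, 16.0-fold lower (-4.00 ± 0.47, limma adjusted p = 0.00128). Igf2r, the receptor that takes up and degrades IGF2, was 1.26-fold lower (-0.34 ± 0.09, limma adjusted p = 0.0419). The insulin receptor Insr, the nearest relative of Igf1r, was 1.36-fold higher (0.45 ± 0.10, limma adjusted p = 0.0299). Htra1, a secreted protease known to cleave IGF-binding proteins, was 1.90-fold lower (-0.92 ± 0.13, limma adjusted p = 0.00277). Stc1, a stanniocalcin that inhibits the binding protein protease PAPP-A, was 1.39-fold lower (limma adjusted p = 0.0496), with overlapping groups. The remaining binding proteins did not pass: Igfbp5 differed by -0.50, Igfbp6 by 0.18 and Igfbp7 by -0.34. The median of the list was -0.24. The Igf2 and Htra1 calls held without any single array, whereas the count of 5 became 2 when replicate 2 or 3 of Tak1/Casp8 or replicate 4 of Tak1/Rip3 was left out. It became 3 when replicate 1 or 4 of Tak1/Casp8 or replicate 1 or 3 of Tak1/Rip3 was left out. Insr was lost without any 1 of 5 arrays, Igf2r without any 1 of 7 and Stc1 without any 1 of 6. Stc1 was also lost with either other normalisation and with each of the 3 other summaries of probe sets, and Igf2r with the arrays shifted to 1 median. With the brightest probe set Htra1 differed by -0.45 (limma adjusted p = 0.139), Insr by 0.31 (0.136) and Igf2r by -0.37 (0.107), so none of these passed there. Insr also missed the threshold with the brighter probe sets (0.0692).

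The pulses of growth hormone secretion in male mice and its steadier release in females set many sex differences of the liver through STAT5B, so genes of both kinds were examined in these male livers. Of 15 measured genes known to be higher in female liver, 7 passed as lower in the Tak1/Casp8 livers, against 4.05% of all genes. Of the 15 differences 13 were negative, with a median of -1.09, and 9272 of all 19560 genes had a negative difference. Among the 7 were the membrane protein Prom1 (3.38-fold, -1.76 ± 0.10 SE, limma adjusted p = 1.63e-05, n = 4 per group), the peroxisomal transporter Abcd2 (2.26-fold), the oxidase Hao2 (3.19-fold), and the cytochromes P450 Cyp2b9 (8.51-fold), Cyp3a16 (4.54-fold) and Cyp3a44 (2.12-fold). In the Tak1/Casp8 livers Cyp3a16 (4.43) and Hao2 (4.99) lay under the lower quartile of gene values, so their folds are uncertain. The P450 genes have near-identical copies, and with the brightest probe set Cyp3a44 differed by -0.16, Cyp3a16 by -0.78 and Hao2 by -0.92, none of which passed. The count was 4 with the brightest probe sets and 1 where each group kept its own unmoderated variance, and the differences of Prom1, Cyp2b9 and another of the 7 were known when the list was drawn up. Prom1 also marks progenitor and bile duct cells. Beside it, 1 of 8 measured bile duct markers passed as higher and 1 as lower, against 2.64% and 4.05% of all genes. Of their differences 6 were negative and 2 positive, with a median of -0.20. The level of that list was 7.86 to 8.82 against 8.36 to 8.72.

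Of 17 measured genes known to be higher in male liver, 1 passed as higher and 1 as lower, against 2.64% and 4.05% of all genes. The major urinary protein Mup20 was 2.16-fold higher (1.11 ± 0.16, limma adjusted p = 0.00379) and the complement regulator Susd4 3.66-fold lower (-1.87 ± 0.23, limma adjusted p = 0.00157) in the Tak1/Casp8 livers. Susd4 still passed with the brighter probe sets and with the brightest one, but at -1.01 and -0.86. The other 15 did not pass, and the median was 0.04. Mup20 belongs to a family of related genes that might share probes, which was not tested.

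Of 10 genes that respond to fasting and insulin, as Igfbp1 does, 2 passed as higher in the Tak1/Casp8 livers, against 2.64% of all genes. The median of the list was 0.07. Lpin1, a phosphatidate phosphatase and transcriptional coactivator, was 2.26-fold higher (1.18 ± 0.22, limma adjusted p = 0.0117). Ppargc1a, the coactivator of fasting gluconeogenesis, was 1.75-fold higher (0.81 ± 0.19, limma adjusted p = 0.0288). Ppargc1a no longer passed once replicate 1, 3 or 4 of Tak1/Rip3 was left out, or replicate 1 or 3 of Tak1/Casp8 (adjusted p up to 0.0891), and the count for the list was 1 in each of these 5 fits. Nor did it pass with the mean over probe sets (0.66, limma adjusted p = 0.0628), the brighter probe sets (0.73, 0.0607) or the brightest one (0.42, 0.394).

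**Figure D4:**
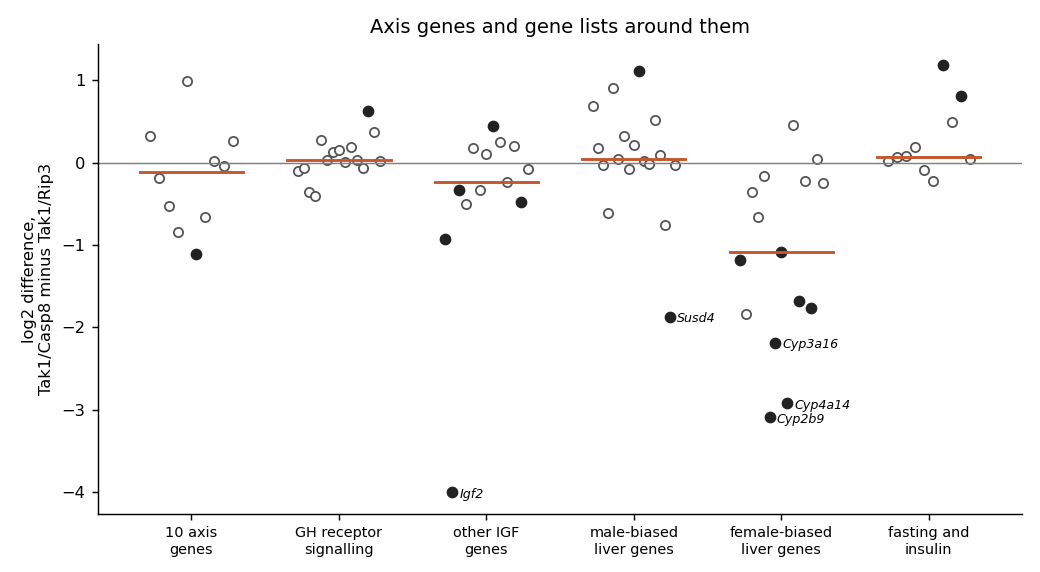
Log2 difference, Tak1/Casp8 minus Tak1/Rip3, of each measured gene (circles) in the 10 axis genes and 5 lists around them; filled circles passed at an adjusted p under 0.05 and the orange line is the list median. The female-biased list has the lowest median, -1.09, and the male-biased list lies around 0.04.

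Igfbp2 was the member that passed, and the genes nearest to it over the 8 arrays were the potassium channel Kcnh2, the protease Capn3 and Efcab11. Likeness was the root mean square distance between values centred on each gene's mean, which was 0.12, 0.13 and 0.18 log2 units. Their own differences were -1.13, -1.01 and -1.09. Choosing genes by likeness over the same 8 arrays fixes such values near that of Igfbp2, so they are not a separate result. With the brightest probe set Kcnh2 instead differed by 1.37, Capn3 by -0.13 and Efcab11 by 0.01, so their likeness to Igfbp2 held for the median over probe sets and not for that choice.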

How the data were processed

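Each array was hybridised with RNA of 1 mouse liver, and the genotype label set the groups. Replicate numbers follow accession order and pair nothing. The values are log2 intensities that the authors deposited after RMA normalisation, a step named without version in the submitters' processing notes. RMA removes shifts shared by most genes and compresses differences near background. The values carry no detection call. Of 223771 probe sets, 206316 had exactly 1 symbol in the platform annotation, and 2571 old symbols were updated through a RefSeq table (GRCm38.p6). No batch is labelled.

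Gene values were tested with lmFit and eBayes (limma 3.58.1, R 4.3.3), two-sided, with Benjamini-Hochberg adjustment over 19560 genes, and probe sets likewise over 223771. The fit was tested on simulated data. Intervals are 95%. The exact permutation over the 70 splits of the arrays cannot go below p = 0.0286. Figures used matplotlib 3.10.9 under Python 3.11.15. Members, lists, tests and alternatives were chosen with earlier results of these data known, so they are not independent of them. Named were all members, the targeted genes, up to 6 called genes per list, Jak2, Stat5a, Cish, Socs3, Igf2, Igf2r, Insr, Igfbp5, Igfbp6 and Igfbp7, and the 3 genes nearest to a called member. Alternatives were 2 normalisations, 3 summaries of probe sets, a filter, moderation with trend, array weights, a Welch test, exact permutation and left-out arrays.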

Additional observations from a re-analysis of the deposited data

Results flagged for a closer look

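In the 20 sets of 4 values (10 genes in 2 groups), 2 held a value far from the other 3 by Dixon's test, which marks about 1 in 20 by chance. Ghr was at 10.73 in Tak1/Rip3 replicate 1, below 11.06 to 11.08 in the other Tak1/Rip3 livers. Socs2 was at 8.14 in Tak1/Casp8 replicate 4, above 7.61 to 7.69 in the other Tak1/Casp8 livers. Neither gene passed the test with or without that liver.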

How the results depend on the processing

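No paired analysis was possible because the labels give no number or litter shared between the groups. The differences of Ghr, Stat5b, Igf1, Igfals, Igf1r, Igfbp1, Igfbp2 and Igfbp3 kept their sign under all alternatives. In the Welch test Igfbp2 (-1.11) lost its call (adjusted p = 0.143), as did most genes, with 115 called. There the members and the growth hormone signalling, other IGF, male-biased and fasting lists had 0 calls (3, 3, 6, 3 and 3 at an unadjusted p under 0.05) and the female-biased list 1. For unadjusted counts, the shares of all genes are not given here. In exact permutation, unadjusted, Ghr (0.33), Stat5b (0.26), Igf1r (-0.52) and Igfbp2 reached the smallest p this design allows, 0.0286. Of all calls 39.4% were higher in Tak1/Casp8, against 45.8% after quantile normalisation and 49.1% with the arrays shifted to 1 median. With the brightest probe sets, 759 genes passed, 4 of the female-biased list, 1 of the other IGF list and 1 of the fasting list. Igf1r passed at -0.52 with the mean over probe sets and with the filter, so 2 members passed in each. Growth hormone signalling had 2 calls with array weights, the filter, a shift to 1 median or trend, and 0 without the 2 least correlated arrays (limma, 3 at an unadjusted p under 0.05). The other IGF list had 3 with the brighter probe sets and with the shift.

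With each array left out in turn, 706 to 1347 genes passed, 1 to 2 members, 0 to 4 of their probe sets, 0 to 1 genes of growth hormone signalling, 2 to 4 of the other IGF list and 1 to 3 of the fasting list. Total calls came to 765 when Tak1/Casp8 replicate 2 was left out, and to 706 and 737 for replicates 1 and 4 of Tak1/Rip3. Igf1r ranged from -0.63 to -0.41, Igfals from -1.18 to -0.63, Socs2 from -0.17 to 0.034 and Igfbp4 from -0.036 to 0.096. Signs that turned were of differences near 0 or of the choice of probe sets, except for Igfbp6. Its difference of 0.18 also turned, to -0.041, without Tak1/Casp8 replicate 2. Socs2 was 0.086 and Igfbp6 -0.11 with the brighter probe sets, where Kcnh2 was 0.20. With the brightest, Kcnh2 was 1.37, Efcab11 0.010, Ripk3 -0.036 and Map3k7 0.088 (0.094 with the mean). Stat5a was -0.068 with array weights, -0.19 with the brighter, -0.088 with the brightest and -0.041 with the mean of probe sets, and -0.091 without the 2 least correlated arrays. Left-out arrays gave -0.043 to 0.083 for Stat5a, -0.20 to 0.16 for Cish and -0.041 to 0.28 for Igfbp6. The causes were not tested.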
